A study of Homo sapiens with 6 samples.

Results

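DNA methylation is written, erased and read by a small set of proteins, and 9 of their genes are described here across BE(2)-C neuroblastoma cells with and without the inhibitor BIX01294. The 9 genes were taken by name: the methyltransferases DNMT1, DNMT3A and DNMT3B, the hemimethylated-DNA binding proteins UHRF1 and UHRF2, the dioxygenases TET1, TET2 and TET3, and the methyl-CpG reader MBD2. All 9 were measured, among 18404 genes in the table, in 11 rows: UHRF1 and TET2 have 2 rows each, and the row with the higher mean is the main one. No row that carries several gene symbols names any of them.

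Methyl groups on cytosines in CpG pairs are copied to the new DNA strand after replication by DNMT1, which UHRF1 recruits to hemimethylated sites. DNMT3A and DNMT3B place methyl groups on unmethylated DNA, and the TET enzymes oxidise 5-methylcytosine so that it can be lost. UHRF1 also reads histone H3 methylated at lysine 9, the mark made by the enzymes of EHMT2 and EHMT1, which BIX01294 inhibits.

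BE(2)-C is a long-established cell line from a human neuroblastoma, with MYCN amplified. The tested cells received 5 µM BIX01294 for 24 h (3 samples), and the control cells received 0.05% DMSO, the solvent, for 24 h (3 samples). The labels give no DMSO content for the BIX01294 samples, and all 6 cultures grew in DMEM with dialyzed serum. The design text calls the samples of a treatment independent, and 1 line at 1 dose and 1 time was studied. Each RNA was hybridised to 1 Affymetrix gene-level array, and the deposited log2 values are 1 per transcript cluster and array.

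Array medians lay between 6.94 and 6.98 in BIX01294 and between 6.98 and 7.01 in DMSO. The 11 sympathetic neuroblast markers measured all lay above the upper quartile of gene levels, among them MYCN, DBH and TH. Of these 11, 3 rose, among them ISL1 by 0.34 on the log2 scale, and 3 fell, among them GATA3 at -0.23. The leukocyte marker PTPRC averaged 3.82 in BIX01294 and 3.80 in DMSO, and CD3E 5.12 and 5.05, both under the lower quartile. CD14 averaged 6.67 in BIX01294 and 6.59 in DMSO, between the lower quartile and the median. The fibroblast and leukocyte list had 0 of 7 measured genes higher and 2 lower, and the mesenchymal and Schwann cell list had 1 of 10 higher and 1 lower. PDGFRB and LUM, expressed by fibroblasts, lay above the upper quartile (means of 10.01 and 10.25 in DMSO) and fell. TWIST1, a mesenchymal transcription factor, also fell (a log2 change of -0.26), and S100B, of Schwann cells, rose. SOX10 and ERBB3 of Schwann cells and COL1A2 of fibroblasts differed by 0.01, -0.02 and -0.03 and did not pass. The mean level of the fibroblast and leukocyte list was 6.56 to 6.65 in BIX01294 and 6.84 to 6.87 in DMSO. That fall rests on PDGFRB and LUM (log2 changes of -1.16 and -0.62). The other 5 genes of the list changed by -0.03 to 0.08 and did not pass. The mean level of the mesenchymal and Schwann cell list was 7.29 to 7.39 in BIX01294 and 7.28 to 7.30 in DMSO. The part of these markers in the results below was not tested. RNA of whole cultures of 1 line was measured, so fewer cells that express a gene and less RNA per cell cannot be told apart.

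After BIX01294, UHRF1 and MBD2 rose, DNMT3A fell, and the other 6 genes did not pass the test. The test was limma's moderated linear model over all 18404 genes, with Benjamini-Hochberg adjusted p under 0.05 as the threshold. Of all genes 23.6% passed it, 12.9% higher and 10.7% lower, so 3 of 9 (33.3%) is a share near that of all genes. No overlap between the groups was seen in 8 of 9 genes, against 40.1% of all genes. The median change of the 9 genes was -0.08 on the log2 scale, against -0.01 over all genes. The main rows of all 9 lay above the median of gene levels on these arrays, so none of these main rows was dim. The shares over all genes include dim genes and are not matched for level. The same limit holds where a count in a gene or marker list is set beside these shares. With the test run on the 9202 genes above the median alone, 4749 passed. Of the 9 genes, 2 rose and 2 fell there. The share without overlap was not counted at that level, so no excess can be read from 8 of 9.

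**Figure D1:**
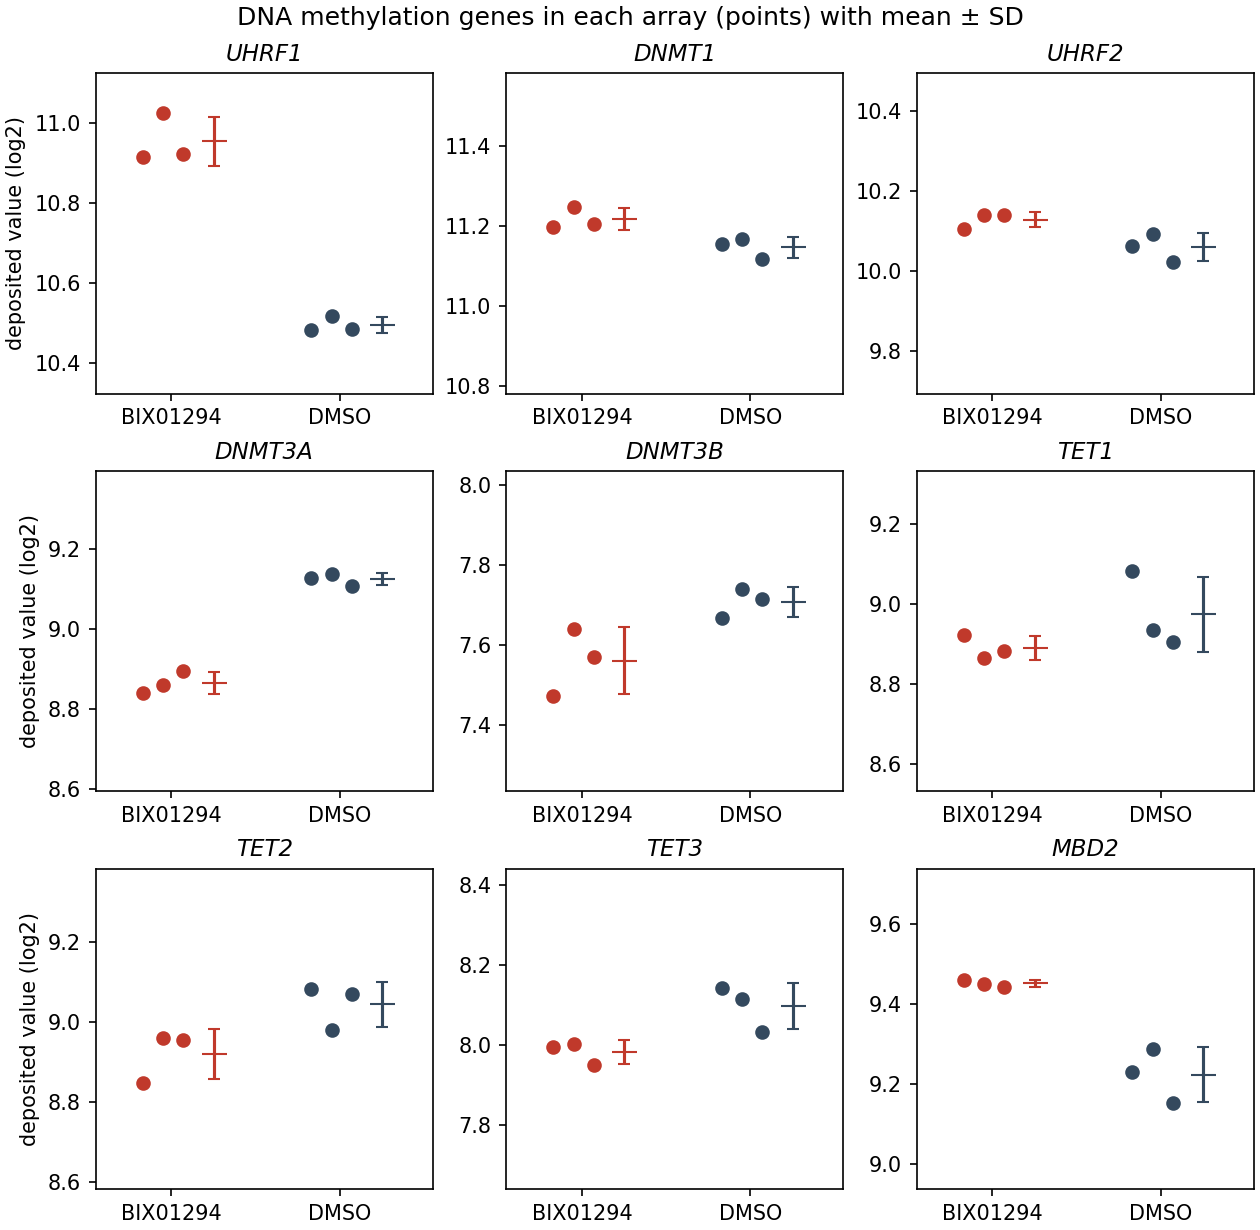
Deposited log2 values of the main row of each gene (vertical axes, each spanning the same range of 0.8 log2 units) in the 3 BIX01294 arrays (red, left) and the 3 DMSO arrays (dark blue, right), with mean and SD beside the points. UHRF1 and MBD2 sit higher and DNMT3A lower in BIX01294, while TET1 is the only gene whose groups overlap.

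UHRF1, the protein that brings DNMT1 to replicated DNA, had the largest change of the 9 genes. Its main row measured 10.92, 11.03 and 10.92 in the BIX01294 arrays, against 10.48, 10.52 and 10.49 in the DMSO arrays. Every BIX01294 array was higher than every DMSO array: the nearest arrays of the groups were 0.40 log2 units apart, and arrays within a group spanned at most 0.11. UHRF1 rose 1.38-fold, a log2 change of 0.46 ± 0.056 (SE; 95% interval 0.33 to 0.59; n = 3 per group), with an adjusted p of 0.0009 in limma. The size of this change lay at percentile 94.4 of all genes.

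The second UHRF1 row did not follow the main one. It measured 6.12, 6.32 and 6.28 in BIX01294, against 6.21, 6.33 and 6.44 in DMSO, and the groups overlapped. The second row was low, at percentile 29.7 of gene levels, against 92.5 for the main row. Its change was -0.09 ± 0.080 (SE; 95% interval -0.27 to 0.10), with an adjusted p of 0.512 in limma over the 19158 rows with 1 symbol. The main row is annotated with 5 RefSeq mRNAs of UHRF1, and the second with 0, only with cDNA records. In this table, rows that follow each other in ID order mostly belong to genes of 1 strand: of 14818 rows with a known strand, 97.6% had the strand of most of their 20 neighbours. UHRF1 lies on the plus strand, as do all 20 neighbours of its main row, whereas 0 of the 20 neighbours of its second row do. The neighbours were looked up after the values were seen. Which strand the second row reads is not given in the sources used here. With the mean of both rows the UHRF1 change was 0.19 and no longer passed (limma adjusted p = 0.0671).

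DNMT1, the maintenance methyltransferase, measured 11.20, 11.25 and 11.21 in BIX01294, against 11.15, 11.17 and 11.12 in DMSO. All 3 BIX01294 arrays were higher, but the distance was small. The change was 0.07 ± 0.051 (SE; 95% interval -0.05 to 0.19) and did not pass (adjusted p = 0.390 in limma). UHRF2, the paralog of UHRF1, measured 10.11, 10.14 and 10.14 in BIX01294 and 10.06, 10.09 and 10.02 in DMSO. It differed by 0.07 ± 0.052 (SE; 95% interval -0.05 to 0.19; adjusted p = 0.403 in limma). After quantile normalization the changes were 0.03 for DNMT1 and 0.01 for UHRF2. The upper ends of the DNMT1 and UHRF2 intervals lie below the lower end of the UHRF1 interval. UHRF1 changed by 0.39 ± 0.023 (SE) more than DNMT1 and by 0.39 ± 0.034 (SE) more than UHRF2. Both differences had an exact two-sided permutation p of 0.1, the smallest that 3 against 3 arrays allow (0.175 adjusted over 7 such pairs), so this test could not pass.

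**Figure D2:**
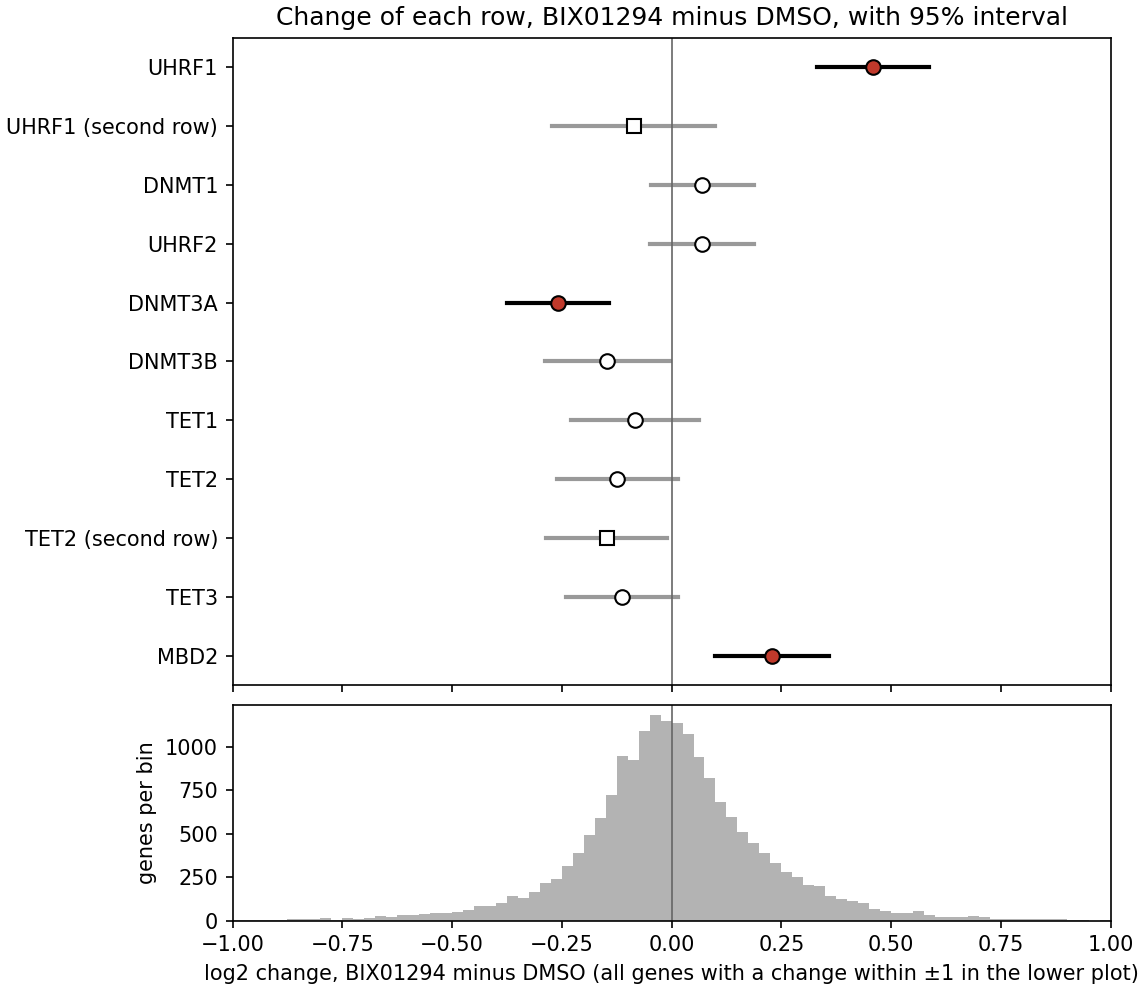
Log2 change of each row, BIX01294 minus DMSO, with its 95% interval from limma (upper plot; circles are main rows, squares second rows, red marks an adjusted p under 0.05), above a histogram of the change of all genes within 1 log2 unit of 0 (lower plot, genes per bin). UHRF1 at 0.46, MBD2 at 0.23 and DNMT3A at -0.26 are the rows that passed, and the UHRF1 second row lies at -0.09.

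UHRF1 and DNMT1 are transcribed mainly in cycling cells, and both are known targets of the E2F factors that drive S phase genes. Their promoters were searched for 4 words of the E2F type, TTTCCCGC, TTTCGCGC, TTTGCCGC and TTTGGCGC, on both strands. The windows run from 250 bases before to 50 after each start, from RefSeq on GRCh38.p14. A word was found at 2 of the 3 UHRF1 starts and at the 1 DNMT1 start, and in none of the 16 windows of the other 7 genes. Among all 35116 windows of this length, 1164 hold such a word. The stretches that hold the matches are shown because windows of these 2 genes hold such a word and the 16 windows of the other 7 do not. Starts outside these windows were not searched. Capitals mark the matched word, read 5′ to 3′ along the gene's strand, and no match overlaps a CCAAT box.
UHRF1, first start, chr19:4909401-4909500, plus strand: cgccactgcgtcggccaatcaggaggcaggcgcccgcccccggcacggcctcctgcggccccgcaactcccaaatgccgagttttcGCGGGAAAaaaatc
UHRF1, second start, chr19:4909954-4910053, plus strand: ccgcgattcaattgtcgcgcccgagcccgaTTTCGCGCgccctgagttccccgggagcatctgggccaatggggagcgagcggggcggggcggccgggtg
DNMT1, chr19:10194944-10195043, minus strand: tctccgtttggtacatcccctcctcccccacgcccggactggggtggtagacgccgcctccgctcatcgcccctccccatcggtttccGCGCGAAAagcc

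The first UHRF1 match begins 14 bases before its start, the second 160 bases before its start, and the DNMT1 match begins 2 bases before its start and runs across it. A word of this type thus stands in a gene that rose and in a gene whose change did not pass. By gene, 1090 of 27305 genes with a window (3.99%) hold a word, and 11 of the 19 S phase genes with a window do. So do 5 of 8 genes with a window on the list of maintenance partners of DNMT1 and UHRF1. The methyl donor, imprinted and neuroblast marker lists have 2 of 9 genes each, as many as the 9 genes described here. Each other list has at most 1 such gene. A match is a run of letters, not a measured binding site. The ATF4-type word TGATGCAA was in 0 of the 20 windows of the 9 genes and in 304 of all windows.

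Genes of S phase rose alongside UHRF1. Of 22 listed, 17 rose, 0 fell and 5 did not pass, with a median change of 0.32. Their mean level was 10.71, 10.67 and 10.67 in the BIX01294 arrays, against 10.32, 10.34 and 10.27 in the DMSO arrays, with no overlap. The 6 with the largest changes were cyclin E2 (CCNE2, 2.16-fold), the flap endonuclease FEN1 (1.61-fold), the origin licensing factor CDC6 (1.54-fold), the replication factor MCM10 (a log2 change of 0.58), the ribonucleotide reductase subunit RRM2 (1.42-fold) and thymidylate synthase TYMS (1.41-fold). UHRF1 changed more than 16 of the 22 S phase genes and less than 6, whereas DNMT1 changed more than 1 and less than 21. The part of S phase genes in the UHRF1 result was not tested.

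**Figure D3:**
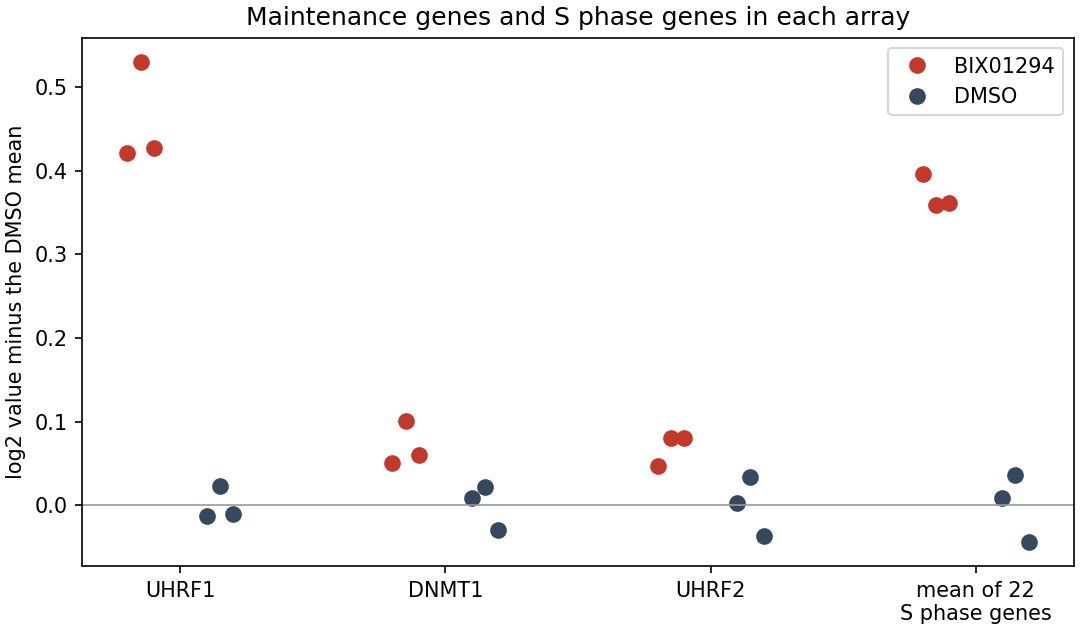
Log2 value minus the mean of the DMSO arrays (vertical axis) for UHRF1, DNMT1, UHRF2 and the mean of 22 S phase genes, 1 point per array, BIX01294 in red left of DMSO in dark blue. UHRF1 and the S phase mean stand clear of their DMSO arrays, and DNMT1 and UHRF2 lie close to theirs.

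Of 9 genes listed as maintenance partners of DNMT1 and UHRF1, 4 rose, 1 fell and 4 did not pass (median change 0.17). Over all genes 12.9% rose and 10.7% fell, but 7 of these 9 lay above the upper quartile of gene levels. Of the 9202 genes above the median level, 4749 passed when tested alone, with 5 of the 9 higher and 1 lower. No excess can thus be read from this count. PCNA, the sliding clamp that DNMT1 binds, measured 11.75, 11.68 and 11.63 in BIX01294, against 11.13, 11.21 and 11.12 in DMSO. It rose 1.45-fold with an adjusted p of 0.000587 in limma. CDCA7, which recruits the remodeler HELLS, rose 1.31-fold, and HELLS itself, needed for methylation of heterochromatin, rose 1.27-fold. The deubiquitinase USP7, which stabilises DNMT1 and UHRF1, measured 11.02, 11.07 and 11.07 in BIX01294, against 10.82, 10.90 and 10.79 in DMSO. Its rise of 1.16-fold lost its call in 6 of 15 alternatives: without BIX01294 replicate 2 or 3 or DMSO replicate 1 or 3 (adjusted p = 0.0671, 0.0796, 0.0806 and 0.0589 in limma), after quantile normalization (0.0524) and with the replicate block (0.0520). CDCA7L, the paralog of CDCA7, fell to 8.76, 8.82 and 8.82 in BIX01294, against 9.25, 9.20 and 9.20 in DMSO, which is 1.34-fold. PCLAF, KAT5, CSNK1D and the ligase LIG1 did not pass.

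The de novo methyltransferases lay lower after BIX01294, and DNMT3A passed. DNMT3A measured 8.84, 8.86 and 8.89 in BIX01294, against 9.13, 9.14 and 9.11 in DMSO. The groups were separated by 0.21 log2 units at their nearest arrays, and the arrays of a group differed by less than 0.06. DNMT3A fell 1.20-fold, with a log2 change of -0.26 ± 0.051 (SE; 95% interval -0.38 to -0.14) and an adjusted p of 0.00766 in limma. It kept its call in all 15 alternatives.

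DNMT3B measured 7.47, 7.64 and 7.57 in BIX01294, against 7.67, 7.74 and 7.72 in DMSO. The groups did not overlap, but BIX01294 replicate 2 came within 0.03 log2 units of DMSO replicate 1. Its change was -0.15 ± 0.062 (SE), and the adjusted p of 0.132 in limma did not pass although the unadjusted p was 0.0442. When the test was run on the 9202 genes above the median level alone, DNMT3B passed (adjusted p = 0.0425 in limma). DNMT3A changed by -0.11 ± 0.049 (SE) relative to DNMT3B, with an exact permutation p of 0.1, the smallest possible here. Among the windows searched, the 1 DNMT3B window holds 3 CpG pairs in 300 bases. The 6 DNMT3A windows hold 18 to 46, against a median of 14 over all windows. Other starts of DNMT3B, if any, were not covered, so the promoters of the pair as a whole cannot be compared.

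Among 7 further methyltransferase family members and regulators, QSER1, which protects unmethylated DNA from the de novo enzymes, was the only one that rose, and 0 fell. QSER1 rose 1.21-fold, to 10.14, 10.19 and 10.23 in BIX01294, against 9.93, 9.98 and 9.83 in DMSO. Its call was lost without BIX01294 replicate 3 (adjusted p = 0.0546 in limma). The cofactor DNMT3L was dim, at a mean of 5.88 in BIX01294 and 5.84 in DMSO, and did not pass.

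The main rows of the 3 TET genes each had a slightly lower mean after BIX01294, and 0 of 3 passed limma, at an adjusted or an unadjusted p under 0.05. TET1 measured 8.92, 8.87 and 8.88 in BIX01294, against 9.08, 8.93 and 8.91 in DMSO. Its groups overlapped, with DMSO replicate 1 standing above the other arrays. The TET1 change was -0.08 ± 0.063 (SE; 95% interval -0.23 to 0.06; adjusted p = 0.404 in limma), and without DMSO replicate 1 it was -0.03.

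TET2 has 2 rows that moved together. The main row measured 8.85, 8.96 and 8.95 in BIX01294, against 9.08, 8.98 and 9.07 in DMSO. The second row, annotated with 1 of the 2 RefSeq mRNAs of the main row, measured 8.86, 8.95 and 8.88 in BIX01294, against 9.09, 9.08 and 8.96 in DMSO. Neither row's groups overlapped. The changes were -0.12 ± 0.060 (SE; adjusted p = 0.187 in limma) for the main row and -0.15 ± 0.060 (SE; adjusted p = 0.121 in limma over all rows with 1 symbol) for the second. The second row had an unadjusted p of 0.0386 in limma and a 95% interval of -0.29 to -0.01.

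TET3 measured 7.996, 8.003 and 7.949 in BIX01294, against 8.14, 8.12 and 8.03 in DMSO. Its change was -0.11 ± 0.056 (SE; 95% interval -0.24 to 0.01; adjusted p = 0.190 in limma). Over the main rows of the 3 TET genes the 95% intervals reached from -0.26 to 0.06, and that of the second TET2 row reached -0.29. The TET genes kept their negative sign in all 15 alternatives and passed in none. Their changes differed from each other by at most 0.04 log2 units, with exact permutation p-values of 0.7 to 0.9. With 3 against 3 arrays this test cannot go below 0.1, so it cannot tell whether the TET genes changed alike.

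Of 8 genes measured on a list of TET cofactors and partners, which also holds the chromatin protein gene SMCHD1, 2 rose, 3 fell and 3 did not pass. CXXC4, a CpG-binding protein that lowers TET2 protein, measured 7.62, 7.83 and 7.62 in BIX01294, against 8.42, 8.37 and 8.35 in DMSO. It fell 1.61-fold with an adjusted p of 0.000463 in limma. OGT, the O-GlcNAc transferase that TET2 and TET3 bind, measured 10.59, 10.51 and 10.58 in BIX01294, against 11.12, 11.04 and 11.04 in DMSO, a 1.42-fold fall. IDH3A, a mitochondrial enzyme that makes the TET cosubstrate 2-oxoglutarate, rose 1.36-fold. D2HGDH, which removes the TET inhibitor D-2-hydroxyglutarate, fell 1.17-fold, and did not pass without BIX01294 replicate 1 (limma adjusted p = 0.0508). SMCHD1, known from the inactive X chromosome, rose 1.17-fold and kept its call in 8 of 15 alternatives. IDH1 and IDH2, which also make 2-oxoglutarate, did not pass, with changes of 0.00 and -0.01.

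Oxidised methylcytosine is removed by base excision. Of 11 genes of that pathway and of the GADD45 family, 3 rose, 2 fell and 6 did not pass. TDG, the glycosylase that excises oxidised methylcytosine, measured 8.35, 8.33 and 8.39 in BIX01294, against 7.95, 7.94 and 7.98 in DMSO. TDG rose 1.32-fold with an adjusted p of 0.0012 in limma. The uracil glycosylase UNG rose 1.29-fold and the damage-inducible GADD45A 1.28-fold. XRCC1, the scaffold of single-strand break repair, fell to 9.66, 9.80 and 9.74 in BIX01294, against 10.25, 10.19 and 10.25 in DMSO, which is 1.41-fold. GADD45G fell 1.32-fold. All 5 genes kept their call in all 15 alternatives.

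**Figure D4:**
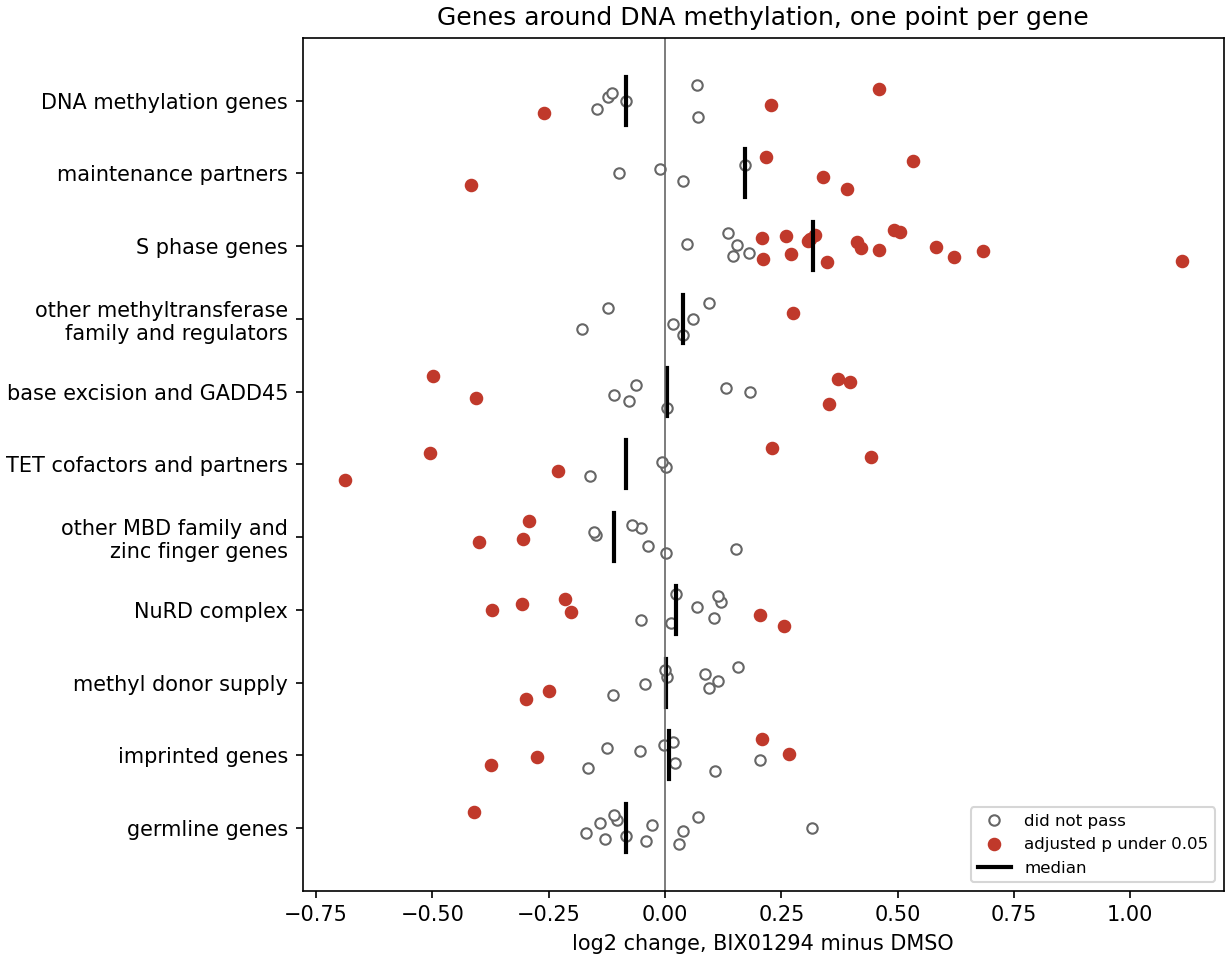
Log2 change of single genes, BIX01294 minus DMSO (horizontal axis), in the 9 DNA methylation genes and 10 lists around them (rows), with red points for an adjusted p under 0.05, open points for the others and a bar at each list's median. The S phase list has its median at 0.32 and no gene that fell, and the other lists have medians between -0.11 and 0.17.

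MBD2, which binds methylated CpG and brings the NuRD deacetylase complex to it, rose. It measured 9.46, 9.45 and 9.44 in BIX01294, against 9.23, 9.29 and 9.15 in DMSO. The BIX01294 arrays lay within 0.02 log2 units of each other, and the lowest of them stood 0.15 above the highest DMSO array. MBD2 rose 1.17-fold, with a log2 change of 0.23 ± 0.056 (SE; 95% interval 0.10 to 0.36) and an adjusted p of 0.021 in limma. The call was lost without BIX01294 replicate 1, 2 or 3 or without DMSO replicate 1 (adjusted p = 0.0599, 0.0554, 0.0613 and 0.0623 in limma), with the change between 0.22 and 0.23 each time.

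Of 10 other genes measured of the MBD family and of zinc finger proteins tied to methylated DNA, 0 rose, 3 fell and 7 did not pass (median change -0.11). MBD5 and MBD6, which have the MBD fold but are not known to bind methylated DNA, fell 1.32-fold and 1.23-fold. MBD5 measured 7.77, 7.89 and 7.68 in BIX01294, against 8.24, 8.16 and 8.13 in DMSO, and MBD6 8.65, 8.60 and 8.64 in BIX01294, against 8.92, 8.94 and 8.94 in DMSO. ZNF445, a zinc finger protein that guards methylation of imprinted regions, fell 1.23-fold. MBD1, MBD3 and MBD4 did not pass, with changes of 0.00, 0.15 and -0.04. The 3 genes that fell kept their call in all 15 alternatives, and 5 of the 10 fell after quantile normalization.

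In the NuRD complex, 2 of 13 genes rose, 4 fell and 7 did not pass. HDAC1, a deacetylase subunit, fell 1.30-fold, to 10.33, 10.30 and 10.32 in BIX01294, against 10.79, 10.67 and 10.61 in DMSO. Its paralog HDAC2 differed by 0.07 and did not pass. The subunit MTA1 fell 1.24-fold and the small subunit CDK2AP1 rose 1.19-fold. The falls of MTA3 and GATAD2B and the rise of GATAD2A, each at most 0.22 in size on the log2 scale, lost their calls in 5 to 7 of 15 alternatives.

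Of 10 methyl donor genes measured, 0 rose, 2 fell and 8 did not pass: AHCY, the hydrolase that clears the methyltransferase product S-adenosylhomocysteine, fell 1.23-fold, to 10.95, 10.94 and 10.82 in BIX01294, against 11.22, 11.17 and 11.21 in DMSO. AHCYL2 fell by 0.25 on the log2 scale and lost its call in 6 of 15 alternatives. MAT2A, which makes the methyl donor in most tissues, differed by 0.00 (adjusted p = 0.963 in limma).

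Germline genes are a class whose silencing is known to depend on DNA methylation. Of 13 measured, 12 lay under the lower quartile, 0 rose and 1 fell. The gene that fell, TEX15, is dim and lost its call without BIX01294 replicate 1 or 3 or DMSO replicate 1 or 2 (adjusted p = 0.0774, 0.0983, 0.0832 and 0.0747 in limma). TDRD1, a piRNA pathway gene on this list, was the only one above the upper quartile and did not pass. MAGEA4, a cancer-testis antigen gene, was the 1 higher gene with an unadjusted p under 0.05. Its log2 change was 0.32, and it did not pass (adjusted p = 0.114 in limma).

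Of 12 imprinted genes measured, 2 rose, 2 fell and 8 did not pass. DLK1 and MEG3, oppositely imprinted neighbours on chromosome 14, both fell. DLK1 measured 12.77, 12.78 and 12.76 in BIX01294, against 13.16, 13.11 and 13.16 in DMSO, and MEG3 11.07, 11.04 and 11.02 in BIX01294, against 11.33, 11.31 and 11.31 in DMSO. The falls were 1.30-fold and 1.21-fold and kept their calls in all 15 alternatives. MEST and SGCE rose 1.20-fold and 1.16-fold, and the rises lost their calls in 6 of 14 and 5 of 15 alternatives. No DNA methylation was measured in these samples. Where limma gave a count of 0 in a list, the unadjusted p was under 0.05 in 0 lower S phase genes, 1 lower further methyltransferase family gene, 1 higher MBD family or zinc finger gene, 1 higher methyl donor gene, 1 higher germline gene and 0 higher fibroblast or leukocyte genes.

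For each of the 3 genes that passed, the 3 genes with the most similar profile were taken by the root mean square difference of the 6 centred log2 values. For UHRF1 they were APOL2, TEX2 and FOXRED2, at 0.019 to 0.024 log2 units. For DNMT3A they were TMC6, FOXN3 and DYNC1LI2 at 0.0092 to 0.016, and for MBD2 they were INTS13, IBTK and METTL2B at 0.0068 to 0.0138. With 6 arrays in 2 groups, a profile is little more than its treatment difference, and many of 18404 genes come close to any one.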

How the data were processed

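RNA of 6 BE(2)-C samples was measured on Affymetrix gene-level arrays. The deposited values are log2 expression values, as read from the values themselves. Partek is the tool named in the submitters' processing notes, while its settings, background correction, normalization and summarization were not given in the sources used here. A change common to most genes would be hidden if arrays had been brought to 1 scale. No detection calls were given, and having 6 arrays limits the precision.

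Of 32321 rows, 19158 had 1 gene symbol in the platform annotation, 1388 several and 11775 none in the table used. Symbols were updated through Entrez identifiers to RefSeq (GRCh38.p14; 19128 matched). Per gene the row with the highest mean was kept (637 of 18404 genes had several). The values were tested with limma 3.58.1 in R 4.3.3, BIX01294 minus DMSO, two-sided, Benjamini-Hochberg adjusted over 18404 genes, with no filter on dim genes. Second rows come from a fit over all 19158 rows. The fit was tested on simulated data.

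The 9 genes, the 10 lists around them, the marker lists and the promoter words were chosen with earlier results of these data known. Named in each list were up to 6 genes past the threshold by size of change; others were named after their values were seen. Alternatives were 2 filters on dim genes, 2 scalings, averaged rows, all rows with 1 symbol, array weights, a variance trend with robust estimation, a block for the replicate number, and each array left out.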

Additional observations from a re-analysis of the deposited data

How the results depend on the processing

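All 9 genes kept their direction in all 15 alternatives. DNMT3A passed in 15, UHRF1 in 14, MBD2 in 11 and DNMT3B in 1, and DNMT1, UHRF2 and the TET genes passed in none. With the mean of all rows UHRF1 measured 0.19 and 1 of the 9 rose. Without genes under the median, 2 of the 9 fell and DNMT3B, at -0.15, passed. Leaving out single arrays, 1 to 2 of the 9 rose and MBD2 ranged from 0.19 to 0.26. The share of higher calls over all genes was 54.7% as deposited, 49.7% after quantile normalization and 64.3% after centring, which moved the median of all genes to 0.03.

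Over the 15 alternatives the maintenance partners that rose numbered 3 to 5 (4 as deposited) and the S phase genes that rose 14 to 21 (17 as deposited). Neither of these counts moved by over 1.5 times. The counts of other lists that follow moved by more than that, or to or from 0. After quantile normalization 2 further methyltransferase family genes and 5 MBD family or zinc finger genes fell, and 1 TET partner rose. After centring 2 NuRD genes fell, and 1 methyl donor gene rose and 1 fell. With the lower-quartile filter 1 methyl donor gene rose and 0 germline genes fell. With the median filter 1 MBD family or zinc finger gene rose and 5 fell, 1 methyl donor gene rose, 0 germline genes fell and 1 imprinted gene rose. With the intensity trend 5 MBD family or zinc finger genes fell and 1 methyl donor gene rose. With array weights 1 MBD family or zinc finger gene and 1 germline gene rose. With the replicate number as a block 1 TET partner, 1 NuRD gene and 0 imprinted genes rose, and no call among the 9 genes changed. The numbers pair no samples by label, and deviations of same-numbered arrays correlated at 0.19, -0.18 and 0.05 across genes. Leaving out single arrays gave 0 to 1 further methyltransferase family genes, 0 to 1 MBD family or zinc finger genes, 1 to 2 TET partners, 1 NuRD gene, 0 to 1 germline genes and 0 to 1 imprinted genes that rose. It gave 2 to 4 NuRD genes, 1 to 2 methyl donor genes and 0 to 1 germline genes that fell. The cause of these shifts was not tested, except that filters change the number of genes tested. Signal over background is not given, so it cannot be said which dim germline genes were detected.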
